A study of Mus musculus with 2 samples.

Results

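The miRNA genes of the Hox clusters were followed in small-RNA libraries of the young mouse adrenal gland. Members were taken by symbol: Mir10a, Mir10b, Mir196a-1, Mir196a-2, Mir196b and Mir615, which are 6 of the 2202 miRNA genes counted. All 6 were found in both libraries. Adrenal glands came from male mice of the F1 hybrid B6CASTF1/J, aged 14 days. No treatment is labelled, and there is 1 group of 2 libraries, called biological replicates 1 and 2. They come from separate biosamples, each described as 3 males, under 1 donor record, and the labels do not say whether a library pools animals. The design holds no contrast between conditions. The questions were therefore how the levels are spread over the Hox clusters and how far the libraries differ.

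Hox genes encode transcription factors that give body segments their identity along the head-to-tail axis, and they stand in clusters in which the order of the genes follows the order of their domains in the embryo. The miR-10 genes lie towards the end of the cluster that is active in front, beside the group 4 genes, and the miR-196 genes lie towards the end active behind, beside the group 9 genes. Both families can repress Hox mRNAs, and cleavage of Hoxb8 mRNA directed by miR-196 is the textbook case of an animal miRNA that cuts its target. Mir615 lies within Hoxc5. A miRNA gene gives a hairpin whose arms, 5p and 3p, become mature miRNAs, and the seed, bases 2 to 8, is the main part that pairs with a target.

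The mature sequences show which members share a seed and which reads can be told apart, and so what the counts can hold. They are from RefSeq (GRCm38.p6), which gave mature sequences for all 6 members. Each is written 5′ to 3′ with the seed in capitals.
miR-10a-5p: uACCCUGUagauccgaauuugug
miR-10b-5p: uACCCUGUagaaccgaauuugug
miR-196a-5p: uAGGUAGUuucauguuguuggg
miR-196b-5p: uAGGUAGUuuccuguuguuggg
miR-196a-1-3p: cAACGACAucaaaccaccugau
miR-196a-2-3p: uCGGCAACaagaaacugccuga
miR-615-5p: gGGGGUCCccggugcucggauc
miR-615-3p: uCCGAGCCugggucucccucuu

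The miR-10 5p arms share the seed ACCCUGU and differ by U12A, counted from the 5′ end with the miR-10a base first. Their 3p arms differ by A3G, U9A and A10U, the first of them within the seed. The miR-196 5p arms share the seed AGGUAGU and differ by A12C, with the miR-196a base first. No other mature miRNA in the RefSeq table has either 5p seed. Both seeds of Mir615 are found in Mir615 alone.

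The 5p arm of miR-196a is the same in Mir196a-1 and Mir196a-2, over 22 bases. A read with several places to map was assigned to no gene, so a read that lies within those bases cannot be given to either gene. A longer read of the arm can. The 3p arms of these 2 genes differ at 17 of 22 positions. The counts of Mir196a-1 and Mir196a-2 thus miss reads by construction, and neither count is a level of miR-196a-5p. Each mature sequence of the other 4 members occurs in 1 hairpin of GENCODE M21. The arms of a hairpin are counted together, so the arm behind a count is not known.

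On mm10 with GENCODE M21, Mir10a lies in the HoxB cluster on chromosome 11 from 96317165 to 96317274, between genes, 1495 bases before the coding part of Hoxb4. Mir196a-1 lies 51.9 kb before it on the same strand, from 96265164 to 96265265, also between genes, with Hoxb13 on one side and Hoxb9 6276 bases on the other. Mir10b lies in the HoxD cluster on chromosome 2 from 74726070 to 74726137, within introns of Hoxd4 and of a long Hoxd3 transcript, 1141 bases before the Hoxd4 coding part. Mir196b lies in the HoxA cluster on chromosome 6 from 52230081 to 52230165, between the coding parts of Hoxa10 and Hoxa9. It overlaps exons of 2 non-coding Hoxa9 transcripts. In the HoxC cluster on chromosome 15, Mir196a-2 lies from 102973350 to 102973434, between Hoxc10 and Hoxc9 and in an intron of a long non-coding Hoxc5 transcript. Mir615 lies 41.5 kb further on, from 103014910 to 103015001, in an intron of Hoxc5. All 6 have the strand of their Hox neighbours. The single other miRNA gene of the files within a Hox cluster, Gm44463 in HoxD, had 0 counts in both libraries, which allows up to 0.992 CPM in replicate 1 and 0.866 in replicate 2.

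**Figure D1:**
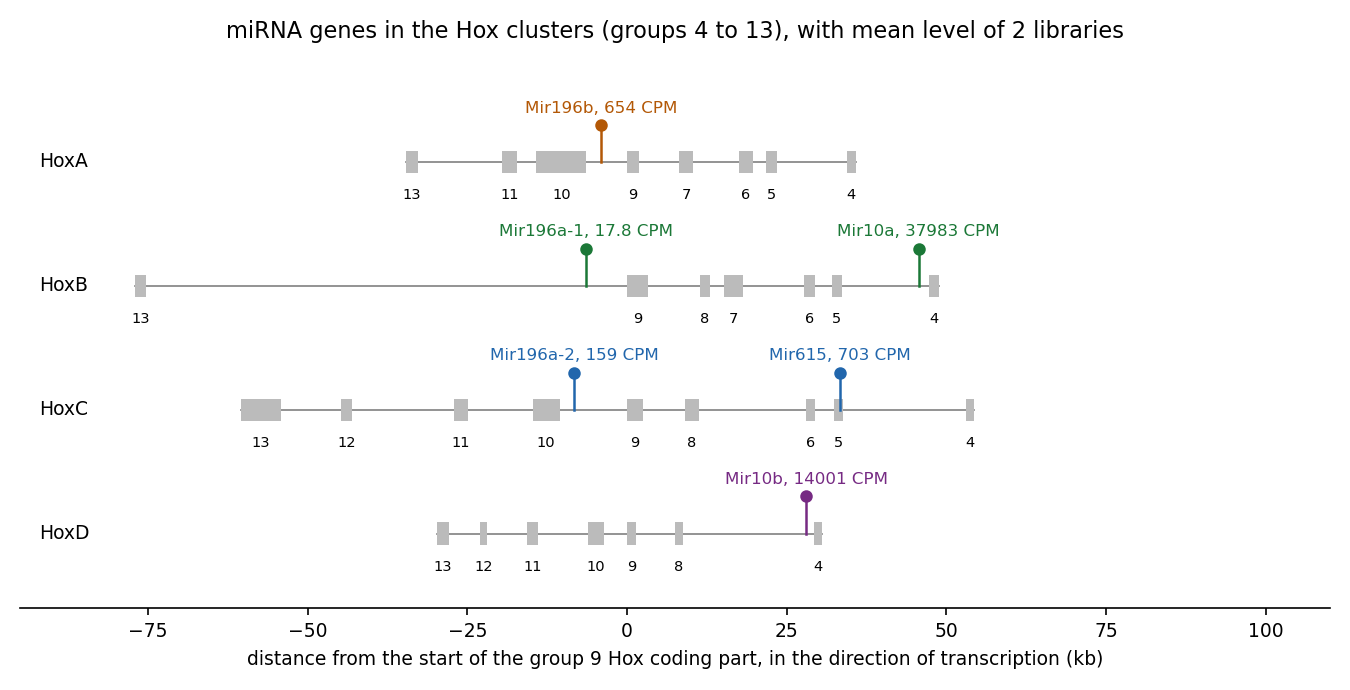
Map of groups 4 to 13 of the 4 Hox clusters. The x axis is the distance in kb from the start of the coding part of the group 9 Hox gene, in the direction of transcription. Grey boxes are Hox coding spans with their group numbers, and coloured pins are miRNA genes with their mean CPM of 2 libraries. Mir10a and Mir10b stand just before the group 4 genes of HoxB and HoxD, and all miR-196 genes stand before group 9.

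Replicate 1 held 3024662 counts in miRNA genes and replicate 2 held 3464837. Levels are CPM, counts scaled to a total of 1000000 in each library, so 1 count was 0.331 CPM in replicate 1 and 0.289 in replicate 2. Intervals are exact at 95%. They cover counting error alone and take each read as separate. Reads copied by PCR are not separate molecules, so the intervals can be too narrow even for counting error. Mir375 and the Mir7 genes, markers of neuroendocrine cells such as those of the adrenal medulla, were all counted in both libraries, with summed levels of 31136 and 34282 CPM.

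The Hox-cluster miRNAs made up 5.72% of miRNA counts in replicate 1 (interval 5.69 to 5.74) and 4.99% in replicate 2 (4.96 to 5.01). Nearly all of this was miR-10. Mir10a and Mir10b together held 96.7% of the members' counts in replicate 1 and 97.6% in replicate 2.

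Mir10a was at 37425 CPM in replicate 1 and 38542 in replicate 2. It ranked 7th and 9th among 2202 miRNA genes, and its SD was 2.08% of its mean, against a median of 15.9% over the 189 genes at 100 CPM or more. Mir10b was at 17870 CPM in replicate 1 and 10131 in replicate 2. It ranked 14th and 25th, and its SD was 39.1% of its mean. The ranges of these 2 genes over the libraries do not overlap, with Mir10a above Mir10b in both.

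For each count of Mir10b there were 2.09 of Mir10a in replicate 1 (interval 2.07 to 2.12), against 3.80 in replicate 2 (3.76 to 3.85). These intervals lie apart, so the balance of the HoxB and HoxD copies differed between the libraries beyond the counting error of reads taken as separate. The annotated hairpin of Mir10a is 1.62 times as long as that of Mir10b, at 110 and 68 bases, while the mature arms have equal lengths. Per base of hairpin the ratio was 1.29 and 2.35, with Mir10a still the higher. With an SD of 1.21 around a mean of 2.95, the size of this ratio is loosely set by 2 libraries, whereas its direction held in both.

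**Figure D2:**
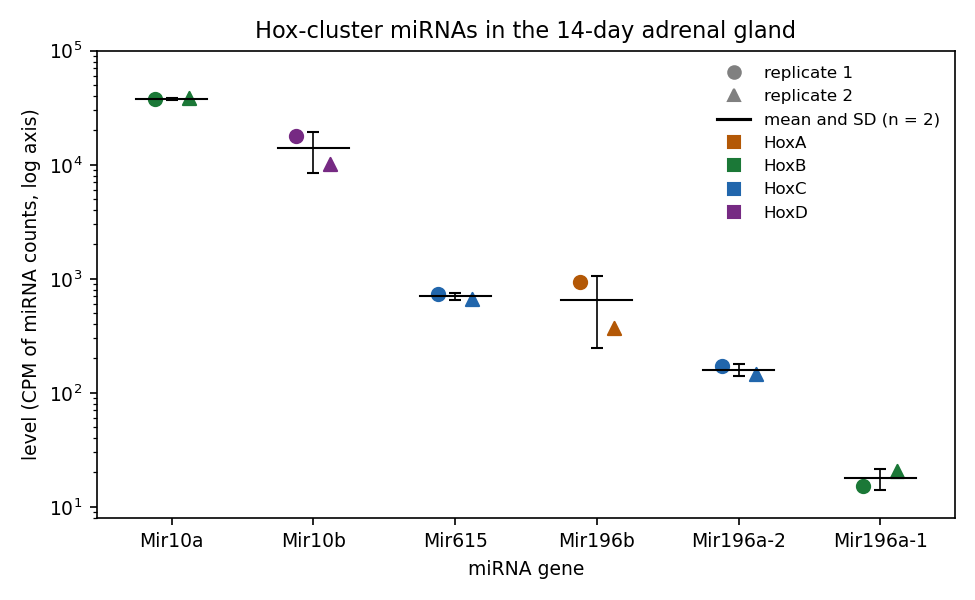
Levels of the 6 Hox-cluster miRNA genes, in CPM on a log axis. Circles are replicate 1, triangles replicate 2, bars the mean with SD (n = 2), and colours the Hox cluster. Mir10a and Mir10b stand above all other members, and the 2 points of Mir196b are the farthest apart.

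Mir615, the miRNA within Hoxc5, was at 738 CPM in replicate 1 and 668 in replicate 2, with an SD of 6.99% of the mean. Its hairpin is the richest in G and C of the 6, at 69.6%, where the others range from 39.7% to 48.0%. Opposite-strand reads of Mir615 numbered 0 and 1. Every other member had none, so the members' raw counts hardly turn on the strand counted. Their CPM do, through the total: with unstranded counts the summed level went from 53518 to 73083 CPM.

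Mir196b, the HoxA member of miR-196, was at 940 CPM in replicate 1 and 368 in replicate 2. Its range holds that of Mir615 within it, so these neighbours in the order do not differ beyond their spread. Mir615 was the lower in replicate 1 and the higher in replicate 2, at 0.785 and 1.82 counts for each count of Mir196b.

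Mir196a-2 of HoxC was at 173 CPM in replicate 1 and 146 in replicate 2. Mir196a-1 of HoxB was at 15.2 CPM in replicate 1 and 20.5 in replicate 2, from 46 and 71 counts. The ranges do not overlap, with Mir196a-2 the higher in both libraries. For each count of Mir196a-1 there were 11.3 of Mir196a-2 in replicate 1 (interval 8.39 to 15.7), and replicate 2 gave 7.13 (5.55 to 9.27). Reads within the shared bases are in neither count, and which arm the counted reads come from is not known. The ratio is not one of the genes' output of miR-196a-5p.

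In the order of mean CPM, Mir10a came first, then Mir10b, Mir615, Mir196b, Mir196a-2 and Mir196a-1. The places of Mir196a-2 and Mir196a-1 are those of counts that miss reads within the shared arm, and not of output. All neighbours but Mir615 and Mir196b had ranges apart. On the scale of CPM per 100 bases of hairpin, means ran from 34530 for Mir10a and 20589 for Mir10b to 17.5 for Mir196a-1. On that scale Mir196b, at 769, stood next to Mir615, at 764, again with overlapping ranges, and the other neighbours again had ranges apart.

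Set by Hox cluster, HoxB held 65.5% of the members' counts in the first library (65.3 to 65.7) and 77.3% in the other (77.1 to 77.5). HoxD held 31.3% (31.0 to 31.5) and 20.3% (20.1 to 20.5). HoxA held 1.64% and 0.737%, and HoxC 1.59% and 1.63%. The HoxB share is nearly that of Mir10a, which alone held 65.5% and 77.3%, and the HoxD share is that of Mir10b. HoxC held nearly the same share in both libraries, while the share of HoxB was higher and those of HoxD and HoxA lower in replicate 2. Shares of a whole move together, so a lower share of HoxD raises those of the others. In CPM, HoxB was at 37440 in replicate 1 and 38562 in replicate 2, and HoxC at 911 and 814.

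**Figure D3:**
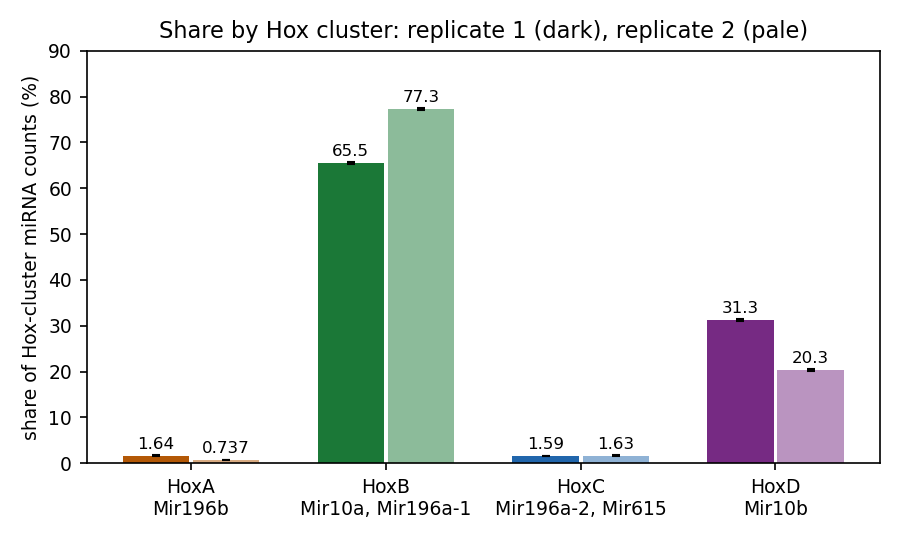
Share of the Hox-cluster miRNA counts held by each cluster, in percent, with the members below. Dark bars are replicate 1, pale bars replicate 2, and error bars exact 95% intervals. The HoxB bars stand at 65.5 and 77.3 and the HoxD bars at 31.3 and 20.3.

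Set by position, the 3 genes beside groups 4 and 5 (Mir10a, Mir10b and Mir615) held 98.0% of the members' counts in replicate 1 and 98.9% in replicate 2. Nearly all of this was miR-10, at 96.7% and 97.6% of the members' counts. Mir615, at the same position, held 1.29% and 1.34%. The 3 miR-196 genes before group 9 held 1.97% (1.91 to 2.04) and 1.07% (1.02 to 1.12). The position near group 9 is also the miR-196 family, in which reads within the shared miR-196a arm are not counted, so position and family cannot be told apart. For HoxC and HoxB, the gene nearer group 4 was set against the miR-196 gene of the same cluster. Both miR-196a genes miss reads within the shared arm, and the other genes are of different families. The ratios are therefore of counts, and no difference between clusters can be read from them. In HoxC, Mir615 had 4.28 and 4.58 counts for each count of Mir196a-2 (3.95 and 4.23 per base of hairpin). In HoxB, Mir10a had 2461 and 1881 for each count of Mir196a-1 (2282 and 1744 per base).

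The libraries were then set against each other. An exact two-sided binomial test on the counts of each gene, adjusted by Benjamini-Hochberg over 413 tested genes, compares these libraries and not conditions, and with 1 library on each side it has no replicate check. Of the 6 members, 5 passed, against 55.4% of all tested genes. In replicate 2, 1 member was higher and 4 were lower, against 28.8% and 26.6% of all. At these depths small ratios pass: of the 189 genes at 100 CPM or more, 82% passed, 43.9% higher and 38.1% lower. The count of members is therefore no more than a description, and the sizes follow.

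Mir196b was 2.56-fold lower in replicate 2 (2.39 to 2.73), the single member past 2-fold, a size that 10.4% of tested genes reached downwards and 6.88% of those at 100 CPM or more. Mir10b was 1.76-fold lower (1.74 to 1.79). Of the 189 genes at 100 CPM or more, 5 had a lower ratio than Mir196b and 14 a lower ratio than Mir10b. These members come from different clusters, HoxA and HoxD.

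Mir196a-2 was 1.18-fold lower (1.04 to 1.34, exact binomial test with Benjamini-Hochberg adjustment, p = 0.0161) and Mir615 1.10-fold lower (1.04 to 1.17, adjusted p = 0.00211 by the same exact test). With Mir122, the liver miRNA, left out of the total, neither passed, with adjusted p = 0.0939 and 0.127, and over 7 alternatives the adjusted p ranged from 7.75e-05 to 0.0939 and from 3.39e-10 to 0.127. The ratio of Mir196a-1, 1.35 (0.917 to 2.00), did not pass (exact binomial test, adjusted p = 0.18), and its interval allows either direction.

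The ratio of Mir10a, 1.03 (1.02 to 1.04), passed the test on 113198 and 133541 counts. Its direction turned under other totals, with log2 ratios from -0.093 to 0.11, so no direction can be given for it. By contrast Mir10b stayed between 1.68-fold and 1.94-fold lower and Mir196b between 2.44-fold and 2.81-fold lower over the same 7 alternatives. The members' median log2 ratio was -0.19, against 0.03 over all tested genes. With unstranded counts the median over tested genes moved to -0.14, and the calls over all genes went from 119 higher and 110 lower to 74 and 139. That setting nearly loses Mir126a, the highest gene in both libraries, at 6 and 12 unstranded counts against 470778 and 328230 sense counts. Mir451a has 0 unstranded counts in both libraries. The log2 ratio of -0.093 for Mir10a comes from this setting.

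**Figure D4:**
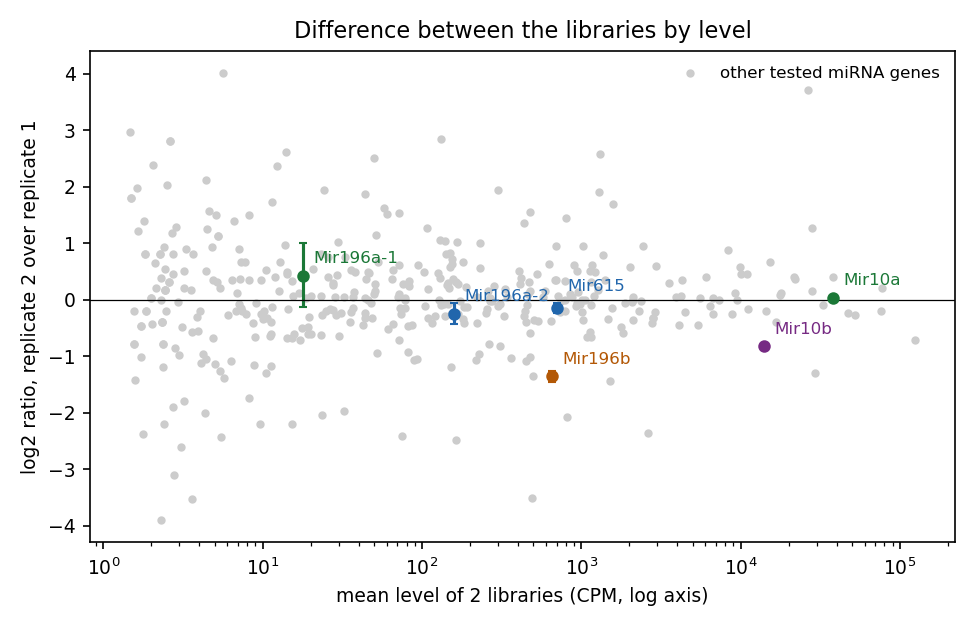
Log2 ratio of replicate 2 to replicate 1 against mean CPM (log axis) for the 413 tested miRNA genes. Grey points are other genes and coloured points the Hox-cluster miRNAs with exact 95% intervals. Mir10b and Mir196b lie below 0, Mir10a lies at 0.04, and the interval of Mir196a-1 crosses 0.

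Markers of other cells also differed between the libraries. List members are counted as higher or lower where they passed the test, as 28.8% and 26.6% of all tested genes did. The white blood cell list summed to 4878 CPM in replicate 1 and 2610 in replicate 2, with 4 of 5 members lower and 1 higher. Red blood cell markers summed to 43959 and 19202 CPM, with 2 of 3 lower, and Mir126a, the endothelial marker, went from 155646 to 94732 CPM. The sums of these lists were lower in replicate 2, as were Mir10b and Mir196b, but not all their members were. Most of the red blood cell sum was Mir451a, at 41828 and 17126 CPM. Mir144 of that list was nearly level, at 2093 and 2053 CPM, and did not pass. The white blood cell marker that was higher was Mir223, at 31.1 and 89.5 CPM.

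The kidney and epithelial list went the other way, from 915 to 1958 CPM, with 8 of 11 members higher and 1 lower. Most of this sum was Mir203, at 697 CPM in replicate 1 and 1344 in replicate 2. Mir122 was at 3786 and 49474 CPM. The muscle list summed to 8.93 and 12.1 CPM, with 0 of its 2 tested members passing (0 also at an unadjusted exact p under 0.05) and Mir1a-1, Mir133a-1, Mir133a-2 and Mir133b at 0 in both. The neuroendocrine list had 2 of 4 members higher and 0 lower, with Mir375 1.11-fold and Mir7b 1.05-fold higher. Whether so small a ratio as that of Mir7b holds its direction under other totals was not tested. No listed marker other than those of muscle was at 0. The part of blood, endothelial, kidney, epithelial or liver RNA in the differences of Mir10b and Mir196b was not tested. In bulk tissue, fewer cells of a type and less RNA per cell cannot be told apart.

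**Figure D5:**
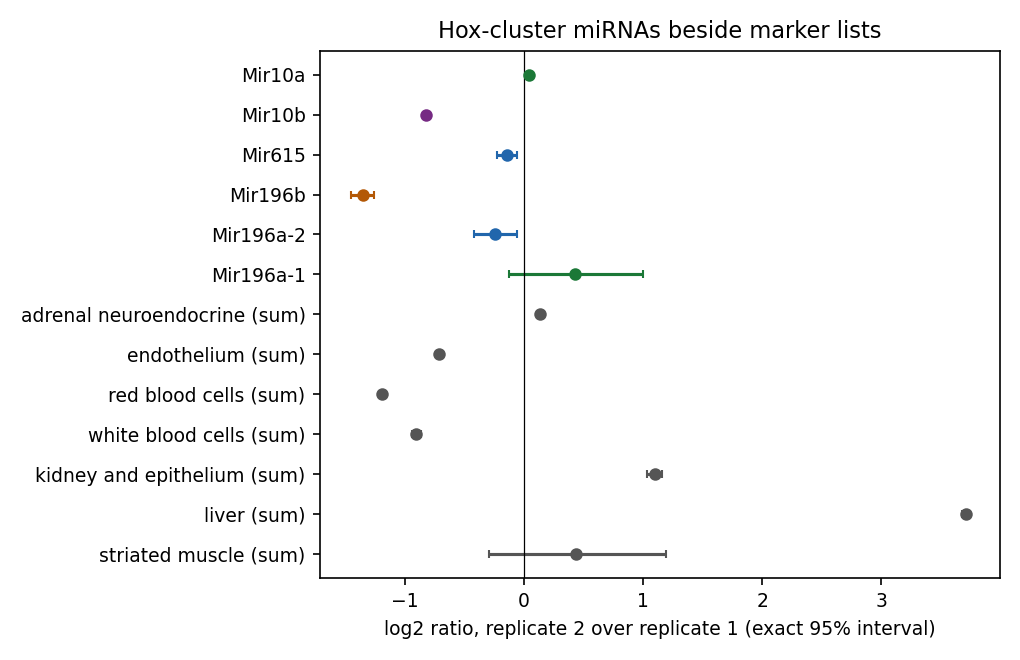
Log2 ratio of replicate 2 to replicate 1 with exact 95% intervals, for the 6 Hox-cluster miRNAs (coloured by cluster) and for the summed counts of marker lists (grey). Mir10b and Mir196b lie to the left of 0 with the endothelial and blood cell sums. The liver sum and the kidney and epithelium sum lie to the right.

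Among miRNAs outside the clusters for which Hox targets are reported, 9 genes were listed. Of these 3 were higher and 3 lower in replicate 2, against 28.8% and 26.6% of all tested genes, and 3 did not pass. Mir99a and Mir100 count as higher at ratios of 1.06 and 1.03, about as small as the 1.03 of Mir10a. Whether their direction holds under other totals was not tested. Their median log2 ratio was -0.24, against 0.03 over all tested genes. The counts of this list are no more than a description. Mir99a and Mir100 of the miR-99/100 family were at 17580 ± 738 and 3920 ± 91.0 CPM (SD, n = 2), and Mir99b at 7316 ± 13.8. Mir130a was 1.84-fold higher (1.81 to 1.87), and Mir126a 1.64-fold lower (1.64 to 1.65).
miR-100-5p: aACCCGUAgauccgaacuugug
miR-99b-5p: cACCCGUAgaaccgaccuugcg

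These are shown because the miR-99/100 arms resemble the miR-10 arms with another seed. With miR-10a-5p, miR-100-5p shares the stretch guagauccgaa of 11 bases, and with miR-10b-5p, miR-99b-5p shares guagaaccga of 10 bases. In each the stretch lies 1 base further from the 5′ end in miR-10. The ratios of the family between the libraries were 1.06 for Mir99a, 1.03 for Mir100 and 0.997 for Mir99b, close to that of Mir10a and apart from that of Mir10b. Few genes were as low as Mir10b: of the 189 genes at 100 CPM or more, 14 had a lower ratio. Being apart from Mir10b is therefore not particular to this family.

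The genes nearest in level over the 2 libraries, by Euclidean distance of log2(CPM + 1), were Mirlet7b at 0.26 and Mir322 at 0.30 for Mir10a. For Mir10b they were Mir127 at 0.47 and Mir335 at 0.51. Mir196b had Mir298 at 0.54 and Mir34c at 0.54. Both were also lower in replicate 2, a direction that choosing by nearness in both libraries favours by construction. For Mir615 they were Mir484 and Mir341, for Mir196a-2 Mir673 and Mir181a-1, and for Mir196a-1 Mir199a-2 and Mir592. With 2 libraries such nearness says little beyond a like level.

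Hox mRNAs were not measured here, so the last comparison is of sequence alone. All 39 Hox genes have a 3′ untranslated region in GENCODE M21, and 34 have one of 500 bases or more. In the first 500 bases, read on the strand of the mRNA, the match to the miR-196 seed, ACTACCT, was found in 8 of 34 Hox genes (23.5%) and in 283 of 14278 coding genes (1.98%). Its reverse complement was found in 2.94% of the Hox windows and 1.87% of all. The miR-10 match, ACAGGGT, was found in 1 of 34 Hox windows (2.94%) and in 4.78% of all. Its reverse complement was found in 5.88% and 5.22%. The Mir615 match GGCTCGG (3p) was found in 0 of 34 Hox windows, against 1.01% of all, and its reverse complement in 2.94% and 1.14%. The match GGACCCC (5p) was found in 4 of 34 (11.8%), against 3.31% of all, and its reverse complement in 2.94% and 2.37%.

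When the whole of miR-196a-5p was laid without gaps along 20900 untranslated regions, the best partner of all was Hoxb8, with 21 of 22 bases complementary, where the median gene reached 13. The site lies on chromosome 11 from 96284888 to 96284909 on the plus strand, and is shown because it lies in the same cluster as Mir196a-1. Capitals mark bases complementary to miR-196a-5p.
Hoxb8 site: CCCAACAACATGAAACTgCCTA

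For miR-196b-5p the same site led, with 20 of 22 bases. The lower-case g lies across from a U of the seed, where a wobble pair is possible but the letters are not complementary, so this site is not among the ACTACCT matches. No Hox gene had more than 14 of 23 bases for miR-10a-5p, a length of match that 25.1% of 20882 untranslated regions reached. For miR-10b-5p, Hoxa5 and Hoxc13 had 15 of 23, which 5.93% reached, and the highest of all genes had 18. A match is a description of letters and not evidence of repression in this tissue, and reads within the shared bases of miR-196a-5p are in no gene's count.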

How the data were processed

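MicroRNA-seq was done on 2 adrenal libraries. The authors deposited a raw read count for each miRNA gene, made on mm10 with GENCODE M21 per the submitters' processing notes. Aligner and counter: not given in the sources used here. Sense-strand counts were used. Totals and tests leave out the 4 summary rows, which name no gene. Assigned reads were 42.2% and 40.9% of each file, and multimapping reads, which are in no gene, 27.5% and 29.4%. All 2202 identifiers matched GENCODE M21.

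Counts were scaled to CPM. Genes whose counts summed to 10 or more over both libraries were tested by an exact two-sided conditional binomial test with Benjamini-Hochberg adjustment at 0.05. The test was tried on simulated Poisson counts, which hold no PCR copies and no variation between animals. There it called 2.91% of unchanged genes, 48% of 1.25-fold changes and 84% of 2-fold changes. The simulation cannot show how the test does with variation between animals. Shares have Clopper-Pearson intervals. With 2 libraries, an exact sign-flip test of levels cannot go below p = 0.5 and was not made. Named genes were the members, other miRNA genes within the Hox clusters, a list of miRNAs with reported Hox targets, and the 2 genes nearest in level to each member at 2 CPM or more. The Hoxb8 site was chosen after the scan was seen. The members and lists were chosen with earlier results of these data known.

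Counts and tests were done in Python 3.11.15 with pandas 2.3.3, with intervals and exact tests from SciPy 1.17.1, adjusted p-values from statsmodels 0.14.6, arrays from NumPy 2.4.6 and plots from matplotlib 3.10.9. In R 4.3.3, edgeR 4.0.16 gave TMM totals and DESeq2 1.42.0 size factors, both as alternatives, beside unstranded counts, other totals and other thresholds.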

Additional observations from a re-analysis of the deposited data

Results flagged for a closer look

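Reads that mapped to more than 1 place enter no comparison. Their share of each file was 27.5% for replicate 1 and 29.4% for replicate 2, without a control sample as a measure of background. Reads of miR-196a-5p, which stands in 2 hairpins, can be among them, and the files do not count them separately. A group of 2 libraries is too small to look for a library that stands apart.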

How the results depend on the processing

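Limits: 2 libraries set each SD, arms are not separated, and reads within miR-196a-5p are in no gene. The summed level, 53518 CPM, was 73083 with unstranded counts, 22245 with all reads of the file as the total, 63818 without genes that share 20 bases in the total, and 65517 without Mir122, Mir126a and Mir451a, an alternative chosen after seeing the data. These totals differ in size by construction. Leaving out each library gave 49876 to 57161. Of the members, 5 differed between libraries (1 higher, 4 lower). Without Mir122 in the total 3 differed (2 lower), by Bonferroni 3 (2 lower), at 1.5-fold 2 (0 higher, 2 lower) and at 2-fold 1 (0 higher, 1 lower). With unstranded counts, with all reads as total and without Mir122, Mir126a and Mir451a, 0 were higher, and the log2 ratio of Mir10a turned to -0.093, -0.0034 and -0.028. The Mir10a to Mir10b ratio, 2.95, ranged from 2.09 to 3.80 leaving out each library. Per base of the annotated gene the HoxB share was 61.4%, HoxD 35.6% and HoxC 1.68%. HoxC was 1.65% per base of the mature arms, added after seeing the data, and 1.32% without Mir196a-1 and Mir196a-2. No paired analysis was possible because there is 1 group.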
